A study of Mus musculus with 10 samples.

Results

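The genes of the rod phototransduction cascade were examined in mouse retina by ChIP-Seq of 2 histone modifications. They were chosen by name from 9 symbols, Gnat1, Gnb1, Gngt1, Pde6a, Pde6b, Pde6g, Cnga1, Cngb1 and Sag, and 8 of the 9 had an entry among the 20044 gene symbols (25152 entries) of the deposited table. Cngb1 had no entry under that symbol. The symbol BC016201, an older name whose annotated 5′ end is the RefSeq start of Cngb1, is given beside the 8 genes and is not counted with them.

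Rods turn the capture of a photon into an electrical signal by a chain of proteins. Light switches on the G protein transducin, made of an α subunit (Gnat1), a β subunit (Gnb1) and a γ subunit (Gngt1). Transducin α relieves the rod cGMP phosphodiesterase, a pair of catalytic subunits (Pde6a and Pde6b), of its inhibitory subunit (Pde6g). The fall in cGMP closes the cation channel of the outer segment (Cnga1 and Cngb1), and arrestin (Sag) helps to end the response. Dimethylation of lysine 4 of histone H3 (H3K4me2) is found at active and poised promoters, and trimethylation of lysine 27 (H3K27me3) is laid down by the Polycomb repressive complex at silenced genes. In the mouse, rods are born from late gestation into the first postnatal week, mature over the following weeks and become the most abundant cells of the retina.

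Whole mouse retinas were collected at the embryonic (E) and postnatal (PN) days E17.5, PN1, PN7 and PN15, untreated and with no transgene described in the sources used here, and the labels give at least 20 retinas per stage. The labels write E17 for the first stage. They also give the strain as Pde6b rd1/rd1, which carries a mutation of a gene described here, in every library. The methods of the study name both C57BL/6j and rd1/rd1 mice and use the mutant as a control without rods, from which wild type C57BL/6j was inferred for these stages. The genotype was not checked because the table holds no sequence. Each mark had 1 library at each of the 4 stages, so no difference between stages could be compared with the spread between animals and none was tested. All retinal cells were in the nuclei pools, so a larger share of rods and more of a mark per rod cannot be told apart in any value below.

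The values are normalized occupancies, the reads within 2.5 kb of a transcription start site (TSS) which the authors scaled to library size and rounded. A 95% counting interval (exact Poisson) was derived from the worth of 1 read, which could be recovered from the rounding pattern in 5 of the 8 libraries with up to 3.20 reads for an occupancy of 1. In the other 3 libraries, H3K4me2 at PN7 and PN15 and H3K27me3 at E17.5, 1 read was taken for an occupancy of 1, which gives the widest interval. Intervals cover counting error only. Over all gene symbols H3K4me2 shifted from PN7 to PN15 by a median of 1 on the log2 scale, and from E17.5 to PN15 by 0.13. Changes are therefore given as log2 ratios of the value plus 1, less the median change of all gene symbols. A gene is said to have risen or fallen where that relative change was 2-fold or more.

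Promoter sequences are given for rod genes and for Gnb1, which is used in many cell types. They hold only the 250 bases before a start, a small part of the window within 2.5 kb of a TSS. For Gngt1 this start (3944008) was not the 5′ end of the mm9 annotation (3943797). RefSeq promoters (GRCm38.p6) were in the reference table used here for 6 of the 9 genes and each matched mm9 (NCBIM37) at 1 place. There was no entry for Gnat1, Pde6a or Pde6g. The 250 bases before each start are printed 5′ to 3′ in the direction of the gene, with capitals for TAATCC, the core of the sites bound by CRX, and TGCTGA, the core of those bound by NRL. A match to the opposite strand reads GGATTA or TCAGCA. CRX and NRL are transcription factors of photoreceptors and of rods.
Cnga1, channel α subunit, chr5:73033992-73034241, minus strand: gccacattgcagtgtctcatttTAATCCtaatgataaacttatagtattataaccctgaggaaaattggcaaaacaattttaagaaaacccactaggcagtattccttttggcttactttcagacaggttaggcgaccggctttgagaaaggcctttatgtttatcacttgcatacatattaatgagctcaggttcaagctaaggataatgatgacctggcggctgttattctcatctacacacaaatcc
Cngb1, channel β subunit, chr8:97830486-97830735, minus strand: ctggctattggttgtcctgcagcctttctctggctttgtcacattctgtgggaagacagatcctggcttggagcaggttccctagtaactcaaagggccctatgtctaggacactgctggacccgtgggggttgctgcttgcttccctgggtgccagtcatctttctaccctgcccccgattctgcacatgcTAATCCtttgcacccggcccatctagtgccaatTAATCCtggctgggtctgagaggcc
Gngt1, transducin γ, chr6:3943758-3944007, plus strand: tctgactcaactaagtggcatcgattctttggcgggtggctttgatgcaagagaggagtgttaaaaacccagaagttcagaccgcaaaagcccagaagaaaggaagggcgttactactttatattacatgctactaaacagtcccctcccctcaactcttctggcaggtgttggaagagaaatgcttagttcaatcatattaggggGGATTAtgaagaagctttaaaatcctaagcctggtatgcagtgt
Pde6b, phosphodiesterase β, chr5:108817142-108817391, plus strand: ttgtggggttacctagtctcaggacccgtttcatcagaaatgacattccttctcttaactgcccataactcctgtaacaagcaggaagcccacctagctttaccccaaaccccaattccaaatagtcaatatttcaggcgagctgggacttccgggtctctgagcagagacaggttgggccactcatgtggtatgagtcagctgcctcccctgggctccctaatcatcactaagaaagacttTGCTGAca
Sag, rod arrestin, chr1:89700005-89700254, plus strand: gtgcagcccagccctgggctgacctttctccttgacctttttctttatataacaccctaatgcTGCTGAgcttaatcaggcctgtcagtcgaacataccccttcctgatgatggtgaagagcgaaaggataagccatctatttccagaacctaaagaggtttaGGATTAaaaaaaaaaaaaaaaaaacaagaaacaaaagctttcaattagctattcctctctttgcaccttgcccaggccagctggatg
Gnb1, transducin β, chr4:154865220-154865469, plus strand: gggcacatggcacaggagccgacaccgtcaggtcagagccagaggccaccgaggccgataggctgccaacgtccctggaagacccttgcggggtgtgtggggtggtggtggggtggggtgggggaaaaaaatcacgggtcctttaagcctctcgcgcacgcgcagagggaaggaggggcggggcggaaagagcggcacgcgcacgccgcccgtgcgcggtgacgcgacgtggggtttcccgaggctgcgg

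The GC content of the Gnb1 promoter was 69.2% and its ratio of observed to expected CpG dinucleotides was 0.920, a ratio reached by 10.2% of the 32841 RefSeq promoters. The ratios of the others were 0.156 for Cngb1, 0.178 for Sag, 0.200 for Pde6b, 0.327 for Cnga1 and 0.335 for Gngt1, and the median over all promoters was 0.374. TAATCC was found on either strand in Cnga1, Cngb1, Gngt1 and Sag, with 2 matches in Cngb1 that begin 58 and 25 bases before the start. It was present in 6.25% of all promoters. TGCTGA was found in Pde6b, 8 bases before the start, and in Sag, and in 16.1% of all promoters. TATAAA, which is left in lower case, matched the opposite strand in Gngt1 and Sag and either strand in 12.4% of all promoters. No match overlapped another, and Gnb1 held none of these letters in this window. Only 5 of the 8 genes with an occupancy had a promoter here, so these are values of single promoters and the base composition of the set as a whole was not compared.

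In the mm9 annotation no other gene started within 2.5 kb of the annotated 5′ end of any of these genes. The body of Sema3f reached into the window of Gnat1 (chr9:107576808-107581923, minus strand), and no other gene body did so for the rest of the set, which includes Pde6g (chr11:120308919-120314814, minus strand). Cnga1 and Sag each had 4 annotated starts, of which 1 lay within 2.5 kb of the 5′ end. Gnb1 had 3 entries with identical values and is counted once.

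H3K4me2 at the rod genes was below the median of all gene symbols until PN7 and above it at PN15, except at Gnb1, which was above it throughout. Occupancies of the 7 genes other than Gnb1 ranged from 6 to 11 at E17.5, from 6 to 20 at PN1, from 3 to 21 at PN7, and from 53 to 126 at PN15. Gnb1 had between 51 and 100 at all 4 stages. From E17.5 to PN15, 7 of the 8 genes rose and none fell, where 5.17% of all gene symbols rose and 12.8% fell (7.84% and 11.7% without centring on the median), and the median relative change of the 8 was 2.92 on the log2 scale, where that of all symbols is 0 by construction.

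**Figure D1:**
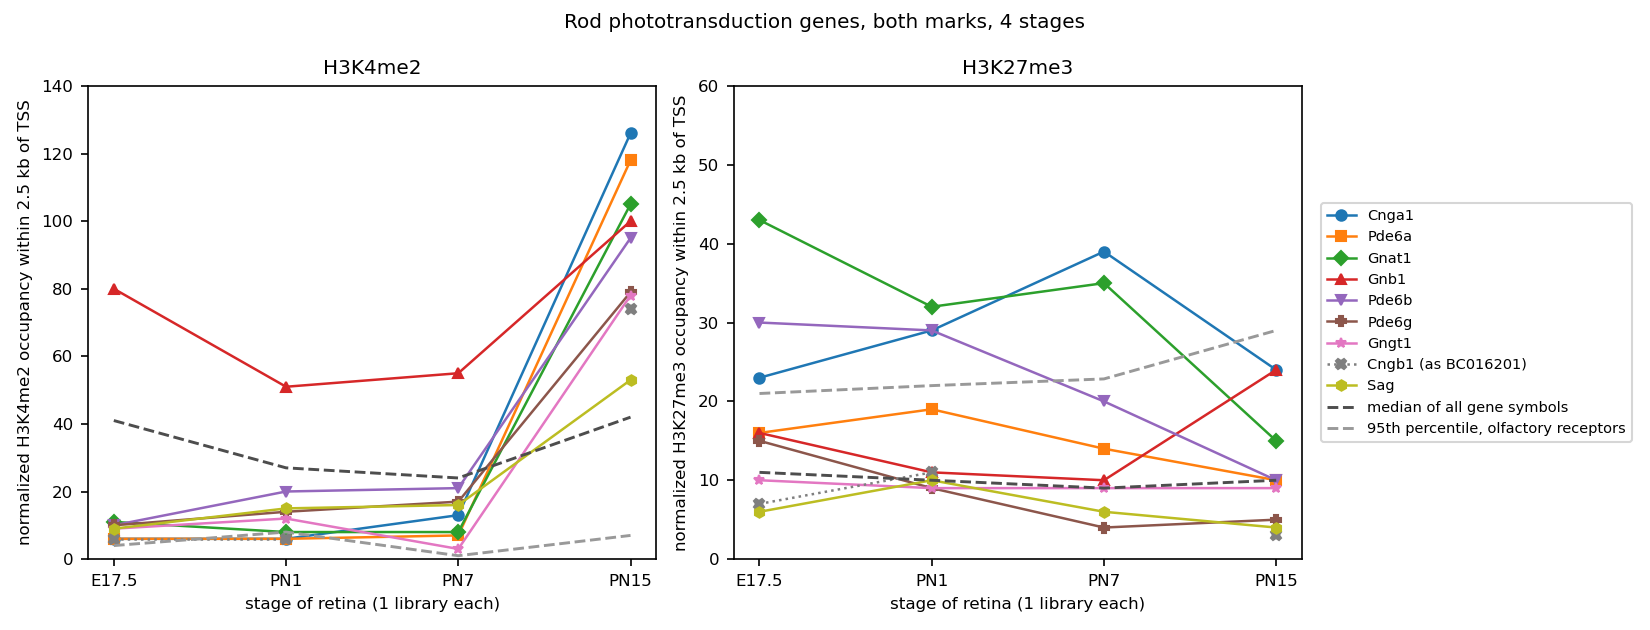
Normalized occupancy (vertical axis) of H3K4me2 (left) and H3K27me3 (right) at the 4 stages, 1 library each, for the 8 genes and for Cngb1 as BC016201, whose values at PN7 are left out. Dashed lines are the median of all gene symbols and the 95th percentile of 1044 olfactory receptor symbols. In H3K4me2 all rod genes other than Gnb1 lie at 21 or below until PN7 and at 53 or above at PN15.

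Of the transducin subunits, Gnat1, the α subunit that carries the signal to the phosphodiesterase, had H3K4me2 of 11 at E17.5, 8 at PN1, again 8 at PN7, and 105 at PN15. The first 3 values were within counting error of each other, and the last was 9.55 times the first (95% counting interval 5.80 to 15.7). Its relative change was 3.01 on the log2 scale. Gngt1, the γ subunit of rods, had 9, 12, 3 and 78 in the same order. The value at PN15 was 8.67 times that at E17.5 (5.02 to 15.4), a relative change of 2.85. Its value of 3 at PN7 was the lowest of the 8 genes in any H3K4me2 library and no larger than the occupancy that 3 reads would give there. Gnb1, the β subunit that transducin shares with other G proteins, had 80, 51, 55 and 100. The ratio of PN15 to E17.5 was 1.25 (0.963 to 1.63) and the relative change 0.19, so the β subunit did not pass the limit while the α and γ subunits of the same complex did.

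Among the phosphodiesterase subunits, Pde6a, the catalytic α subunit, had H3K4me2 of 6, 6, 7 and 118 over the 4 stages. It stayed at one level through PN7 and was then 19.7 times its E17.5 value (10.8 to 41.2), a relative change of 3.95. Pde6b, the catalytic β subunit, had 10, 20, 21 and 95. It was higher than Pde6a at PN1 and PN7, by 20 against 6 and 21 against 7, and lower at PN15, and the counting intervals of both genes overlapped at each of these stages. Its ratio of PN15 to E17.5 was 9.50 (5.66 to 16.2) and its relative change 2.99. Pde6g, the inhibitory subunit, had 10, 14, 17 and 79, a ratio of 7.90 (4.66 to 13.6) and a relative change of 2.73. All 3 subunits of the enzyme rose over the whole course.

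Cnga1, the α subunit of the rod channel, had H3K4me2 of 6, 6, 13 and 126. The last was the highest value of the 8 genes in any H3K4me2 library, 21.0 times that at E17.5 (11.6 to 43.9), and the relative change of 4.05 was the largest of the set. BC016201, standing for the channel β subunit Cngb1, had 6 at both E17.5 and PN1 and 74 at PN15 in the entry with the larger sum, and 4, 4 and 77 in its second entry. The ratio of PN15 to E17.5 in the first was 12.3 (6.63 to 26.2) and the relative change 3.29. At PN7 both entries were listed at 0 in both marks, as were 891 of the 25152 entries, and these values were not used. Sag, the arrestin of rods, had 9, 15, 16 and 53, and its relative change of 2.30 was the smallest among the genes that rose.

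The intervals differed in how many genes rose. From E17.5 to PN1, 2 of the 8 genes rose, Pde6b (1.35) and Sag (1.09), where 13.7% of all symbols rose. The counting intervals of their uncentred ratios, 0.999 to 3.84 and 0.786 to 3.50, lay above the median fold of all symbols, 0.75. None fell, where 1.11% of all symbols did. Without centring Pde6b (0.93) and Sag (0.68) did not reach the limit, and 8.23% of all symbols rose and 6.78% fell. From PN1 to PN7, Cnga1 rose (1.5) and Gngt1 fell (-1.20), where 13.7% of all symbols rose and 26.6% fell (4.09% and 36.8% without centring). The median fold of all symbols was 0.707, which lay below the interval of the uncentred Cnga1 ratio, 0.812 to 7.35. That interval included 1, and the change of Cnga1 was 1 without centring and 1.15 with a filter at a mean of 5. Whether its rise lay beyond counting error thus depended on the centring. The median fold lay within the interval of Gngt1, 0.0446 to 0.888, so the relative fall of Gngt1 was within counting error. From PN7 to PN15, 6 of the 8 genes rose, where 15.9% of all symbols rose and 17.1% fell. Without centring 52.3% of all symbols rose and 2.06% fell. The relative changes were 3.30 for Gngt1, 2.89 for Pde6a, 2.56 for Gnat1, 2.18 for Cnga1, 1.15 for Pde6g and 1.13 for Pde6b. Sag, at 0.67, and Gnb1, at -0.15, stayed under the limit. Without centring Sag was at 1.67, past the limit, whereas Gnb1, at 0.85, stayed under it.

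The H3K4me2 library of PN7 had 19.5% of its entries at 0, against 0.362% to 2.52% in the other 3, so the course was also read without it. From PN1 to PN15, 7 of the 8 genes rose and none fell, where 4.58% of all symbols rose and 19.4% fell (21.3% and 12.4% without centring), with a median relative change of 2.01 and Gnb1 again the exception at 0.46. Adjacent intervals share a library, so a low value at PN7 lowers one change and raises the next.

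**Figure D2:**
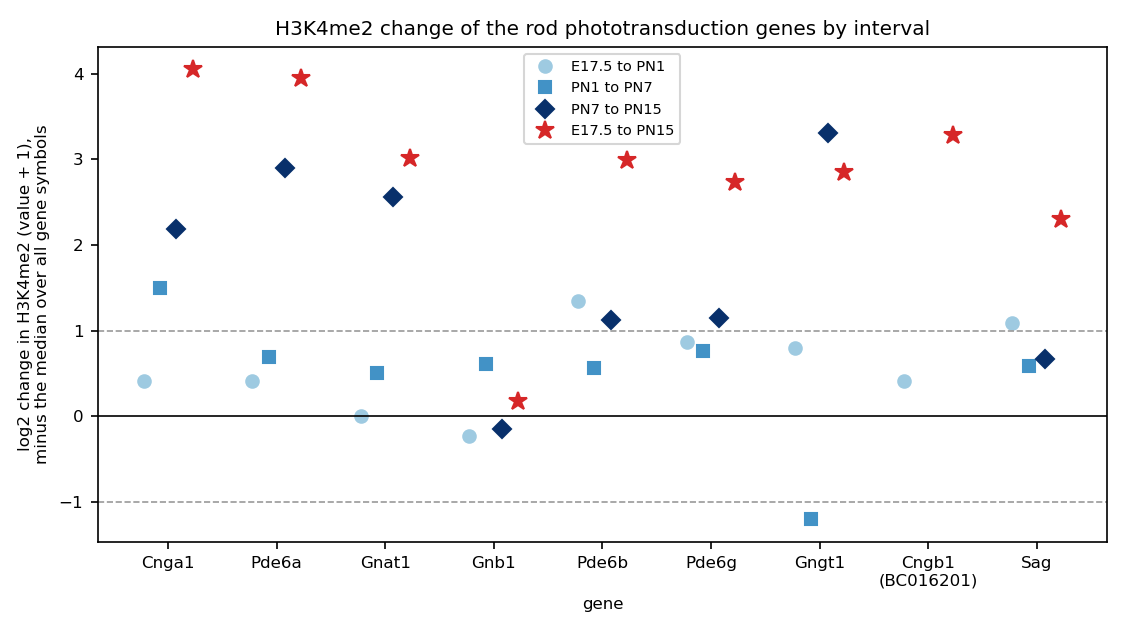
Log2 change of H3K4me2 (value plus 1) less the median change of all gene symbols, for 3 successive intervals and for the whole course, with dashed lines at 2-fold. The changes over the whole course are 2.30 or more for all genes but Gnb1 (0.19), and those from PN7 to PN15 exceed 2 for Gngt1, Pde6a, Gnat1 and Cnga1. Changes that involve PN7 are left out for Cngb1.

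At PN15 the order of H3K4me2 was Cnga1 (126), Pde6a (118), Gnat1 (105), Gnb1 (100), Pde6b (95), Pde6g (79), Gngt1 (78), BC016201 (74) and Sag (53). Every neighbour in this order had an overlapping counting interval, from 105 to 150 for Cnga1 to 39.7 to 69.3 for Sag, so only genes far apart in it were separated by counting error. Ranked within each library, the 7 genes other than Gnb1 lay between percentiles 26.5 and 30.9 of all gene symbols at E17.5 and between 57.0 and 95.7 at PN15, with medians of 29.5, 33.4, 38.7 and 85.7 over the 4 stages. Gnb1 was at percentile 88.0 at both E17.5 and PN15.

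The H3K4me2 values of the rod genes were also set beside those of genes of another tissue. Olfactory receptor genes, which are used in the nose, served as silent genes of the same table. Above their 95th percentile (4, 8, 1 and 7 over the 4 stages) lay 5 of the 8 genes at PN1 and all 8 in the other 3 libraries. Of all gene symbols 77.2%, 72%, 72.1% and 70.9% did so, so most symbols passed this limit at each stage, and the 5 of 8 at PN1 were a share no higher than that of all symbols. With the 99th percentile as the limit, 6 of the 8 lay above it at E17.5. Gnat1, Pde6a and Cnga1, at 8, 6 and 6, were at or under the limit at PN1.

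H3K27me3 at the same genes fell at some of them over the course. At E17.5 Gnat1 (percentile 85.7 of all symbols), Pde6b (81.4) and Cnga1 (76.98) ranked high, and the median percentile of the 7 genes other than Gnb1 was 68.0, against 45.7 at PN15. No gene of the set exceeded 43 in any library, where 5% of all symbols were above 179 at E17.5 and above 97 at PN15. From E17.5 to PN15, 3 of the 8 genes fell, Gnat1, Pde6b and Pde6g, and none rose, where 16.1% of all symbols fell and 12.2% rose. The median relative change was -0.56. With PN1 as the start, Gnat1, Pde6b and Sag fell and Gnb1 rose (1.06), where 17% of all symbols fell and 13.2% rose.

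Gnat1 had the most H3K27me3 of the set at E17.5, with 43, followed by 32, 35 and 15. The last was 0.349 of the first (0.184 to 0.618), a relative change of -1.46. Pde6b had 30, 29, 20 and 10 and a ratio of 0.333 (0.145 to 0.657). Its first 2 values were alike and each later one was lower. Pde6g had 15, 9, 4 and 5 and a ratio of 0.333 (0.111 to 0.952), from a start near the median of all symbols, which was 11 at E17.5.

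Cnga1 did not fall over the whole course, with H3K27me3 occupancies of 23, 29, 39 and 24. It was higher at PN7 than at either end. The counting interval at PN7, 32.5 to 46.6, overlapped those at E17.5 (14.6 to 34.5) and PN15 (16.2 to 35.3). Its ratio of PN15 to E17.5 was 1.04 (0.590 to 1.93), although its H3K4me2 changed most. Gnb1 had 16, 11, 10 and 24 and rose from PN7 to PN15 by 1.18, where 15% of all symbols rose. Pde6a had 16, 19, 14 and 10, Gngt1 10, 9, 9 and 9, and Sag 6, 10, 6 and 4, and none of these 3 passed the limit from E17.5 to PN15. Over the single intervals none of the 8 genes passed it from E17.5 to PN1, where 5.77% of all symbols rose and 8.27% fell, or from PN1 to PN7, where 8.44% rose and 9.33% fell (6.99% and 13.5% without centring). From PN7 to PN15 Gnat1 alone fell (-1.17), where 9.7% of all symbols did. BC016201 had 7, 11 and 3 without PN7, a change just at the 2-fold limit with an interval of the ratio, 0.0624 to 1.64, that included 1.

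The 95th percentile of the olfactory receptor genes in H3K27me3 was 21, 22, 22.9 and 29 at the 4 stages. Above it lay Gnat1, Pde6b and Cnga1 at E17.5 and PN1, Gnat1 and Cnga1 at PN7, and none of the 8 genes at PN15. The share of all gene symbols above it was 24.3%, 24.8%, 24.3% and 19.3%. With the 99th percentile as the limit, 1 gene at E17.5 (Gnat1) and none at the later stages remained above.

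At 3 of the genes the higher of the marks was H3K27me3 at E17.5 and H3K4me2 at PN15 beyond counting error. H3K27me3 exceeded H3K4me2 at E17.5 in Gnat1 (43 and 11), Pde6b (30 and 10) and Cnga1 (23 and 6), with counting intervals that did not overlap, whereas those of Pde6a (16 and 6), Pde6g (15 and 10) and Gngt1 (10 and 9) did. Of all gene symbols 41.8% had the higher value in H3K27me3 at E17.5. At PN15 H3K4me2 exceeded H3K27me3 in all 8 genes, by 49 in Sag to 108 in Pde6a, where it did so in 56.2% of all symbols. The marks come from different antibodies and libraries, so a difference between them within a stage depends on both scales. At PN7 Gnat1 (8 and 35), Cnga1 (13 and 39), Pde6a (7 and 14) and Gngt1 (3 and 9) had the higher value in H3K27me3, as 45.9% of all symbols did, and the intervals of the latter pair of genes overlapped.

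Cones, the other photoreceptors, use a parallel set of proteins encoded by other genes, which allows each rod gene to be set beside its counterpart. From E17.5 to PN15 the H3K4me2 of the 8 counterparts rose in 2, Gnb3 (1.30) and Arr3 (1.28), and fell in 1, Cngb3 (-1.21), where 5.17% of all symbols rose and 12.8% fell, with a median relative change of 0.12 against 2.92 in the rod genes. From PN7 to PN15 alone it rose in 4 (Arr3, Gnat2, Pde6c and Pde6h) and fell in none, where 15.9% of all symbols rose and 17.1% fell, with a median of 0.82 against 1.67 in the rod genes. These 4 started from 0, 4, 2 and 1 in the PN7 library. Without it, from PN1 to PN15, 0 of the 8 rose and 0 fell, where 4.58% of all symbols rose and 19.4% fell. The median was 0.07 against 2.01. Their H3K27me3 rose in 3, Pde6c (1.39), Gngt2 (1.13) and Cnga3 (1.12), and fell in none from E17.5 to PN15, where 12.2% of all symbols rose and 16.1% fell, with a median of 0.88 against -0.56. With 1 library per stage the difference between the sets was not tested. Cones are a small minority of mouse photoreceptors.

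Gnat2, transducin α of cones, had H3K4me2 of 32, 11, 4 and 24 and H3K27me3 of 51, 43, 72 and 95, where Gnat1 ended at 105 and 15. Gngt2, transducin γ of cones, ended at 26 and 148, where Gngt1 ended at 78 and 9. Its H3K27me3 was 67, 72, 54 and 148, the highest value of the counterparts. Gnb3, transducin β of cones, was the exception, with H3K4me2 of 25, 26, 43 and 69 and H3K27me3 of at most 13.

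The phosphodiesterase of cones has one kind of catalytic subunit, Pde6c, with H3K4me2 of 12, 7, 2 and 18 and H3K27me3 of 15, 13, 40 and 41. Its inhibitory subunit, Pde6h, had 12, 13, 1 and 9 in H3K4me2 and 9, 11, 9 and 17 in H3K27me3. Cnga3, the cone channel α subunit, had 24, 17, 9 and 24 in H3K4me2 and 50, 69, 100 and 110 in H3K27me3. At PN15 it thus had 24 and 110 where Cnga1 had 126 and 24. Cngb3, the β subunit, had 18, 9, 4 and 8 in H3K4me2 and at most 10 in H3K27me3. Arr3, cone arrestin, had 2, 4, 0 and 7 in H3K4me2 and 27, 25, 36 and 21 in H3K27me3, and its rise was one between values at or under the limit of the olfactory receptor genes. At PN15 Cnga3, Gnat2, Gngt2 and Pde6c were above that limit in H3K27me3, and none of the rod genes was.

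**Figure D3:**
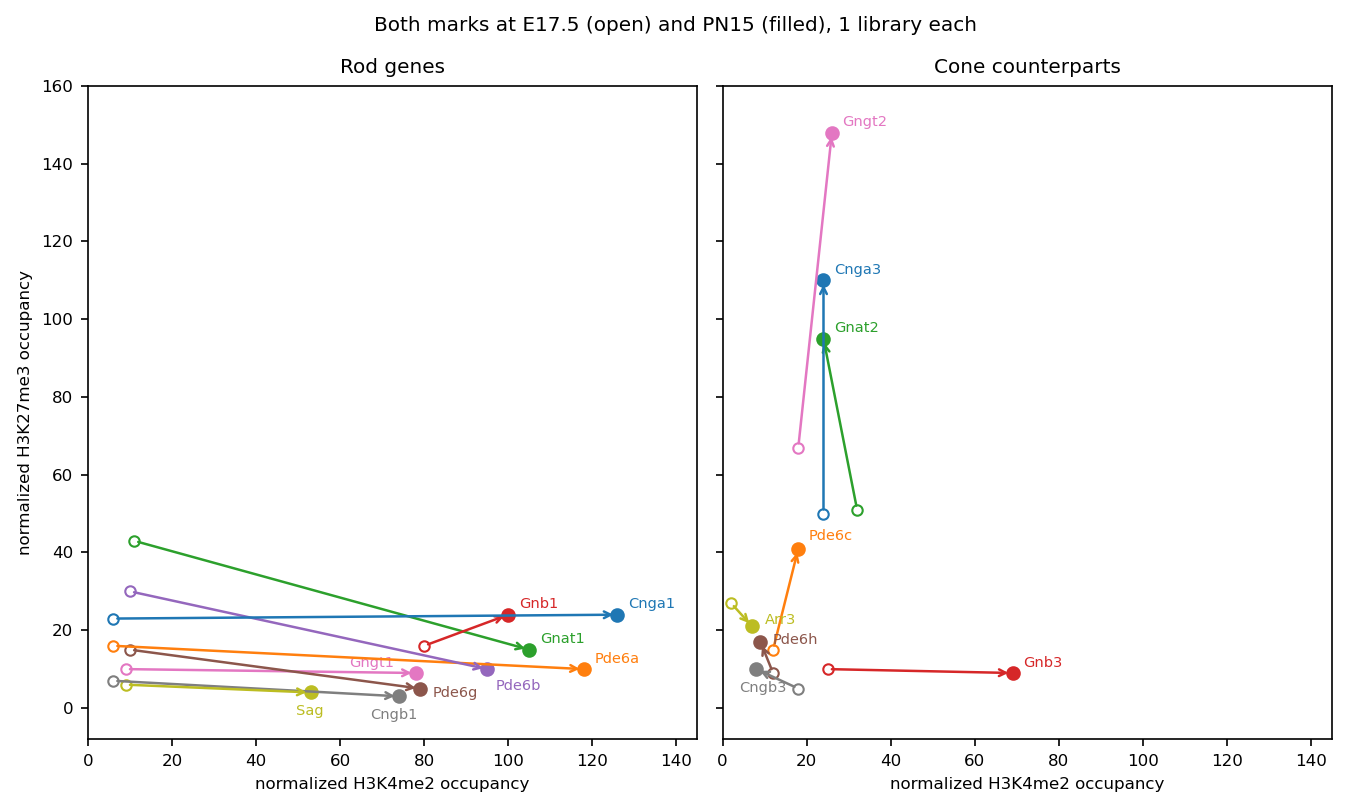
H3K4me2 (horizontal axis) and H3K27me3 (vertical axis) as normalized occupancy, from E17.5 (open circle) to PN15 (filled circle), for the rod genes (left) and their cone counterparts (right), 1 library per mark and stage and 1 colour per pair. Rod genes end at H3K4me2 of 53 to 126 and H3K27me3 of 24 or less, whereas Gngt2, Cnga3 and Gnat2 end at H3K27me3 of 95 to 148.

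The rod genes were also set beside the other members of their protein families. Among 8 G protein α genes Gnat1 alone rose in H3K4me2 from E17.5 to PN15, where, as for the γ and β genes, 5.17% of all symbols rose and 12.8% fell. At PN15 this family ran from Gnat3 (6), the α subunit of taste cells, to Gnaz (139), which had 65 at E17.5 and a relative change of 0.95. Among 12 γ genes Gngt1 alone rose and Gng2 fell (-1.02), and the family ran from Gng7 (12) to Gng3 (100), a neuronal γ gene that already had 92 at E17.5. Of 5 β genes Gnb3 alone rose, and the family ran from Gnb4 (27) to Gnb5 (118). Gnb5 has a second entry, with 13, 14, 14 and 126, which would pass the limit (3.05) where the entry used did not (0.76), and so would the mean of both (1.52).

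Of 6 phosphodiesterase 6 genes the 3 of rods rose, where 5.17% of all symbols rose and 12.8% fell, as for the channels and arrestins, and the family ran from Pde6h (9) to Pde6a (118) at PN15. In the channel family Cnga2, the subunit of olfactory neurons, had the lowest value at PN15 (2) and Cnga1 the highest. Cnga1, BC016201 and Cnga4 rose and Cngb3 fell, with Cnga4 going only from 3 to 9. Among 4 arrestins Sag and Arr3 rose, and Arrb2 (76), a β-arrestin of many tissues, was the highest at PN15 with 58 at E17.5.

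Other genes of the rod light response, listed with earlier results of these data known, mostly rose with the cascade. Of 18 such genes 13 rose in H3K4me2 from E17.5 to PN15 and none fell, where 5.17% of all symbols rose and 12.8% fell, with a median relative change of 2.19. Those that did not rise were Pde6d (0.23), which handles prenylated proteins, Rgs9 (0.59), Rgs9bp (0.66) and Gnb5 (0.76), parts of the complex that speeds the shutoff of transducin, and Gucy2e (0.96), a guanylate cyclase. Their values at E17.5 ranged from 42 for Gucy2e to 100 for Rgs9bp. Atp2b1, a calcium pump, started within this range, at 52, and rose (1.13). Gnb5, with 63, 35, 43 and 118 in the entry used, would start at 13 and count as a rise in its other entry.

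The highest fitted change was that of Rcvrn, the calcium sensor recoverin, with 1, 9, 10 and 134. Its first value lay under the occupancy of 3 reads (1.61) and the olfactory receptor limit (4), so its change of 5.94 depends on the pseudocount, and the ratio of 134 had a counting interval of 34.0 to 1044. Next were Aipl1, a chaperone of the phosphodiesterase, with 15, 16, 20 and 155 (3.15), and Nr2e3, a rod transcription factor, with 11, 15, 38 and 107 (3.04). By role, 6 of 7 genes of calcium and cGMP, 3 of 4 that handle the G protein and the phosphodiesterase, 3 of 3 regulators (Nrl, Nr2e3 and Crx) and 1 of 4 shutoff genes (Grk1) rose over the whole course, or 2 of 4 with the other entry of Gnb5. Of all symbols 5.17% rose and 12.8% fell over this course.

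In H3K27me3, 6 of the 18 fell from E17.5 to PN15 and none rose, where 16.1% of all symbols fell and 12.2% rose, and the median was -0.67. Rgs9bp went from 129 to 19, Slc24a1, the exchanger that removes calcium from the outer segment, from 182 to 40, Gucy2e from 72 to 17 and Guca1a, a cyclase activator, from 117 to 58. All 4 started above any of the cascade genes, of which Gnat1 was the highest at 43. Atp2b1 (23 to 4) and Pdc (10 to 3) were the other 2 that fell.

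**Figure D4:**
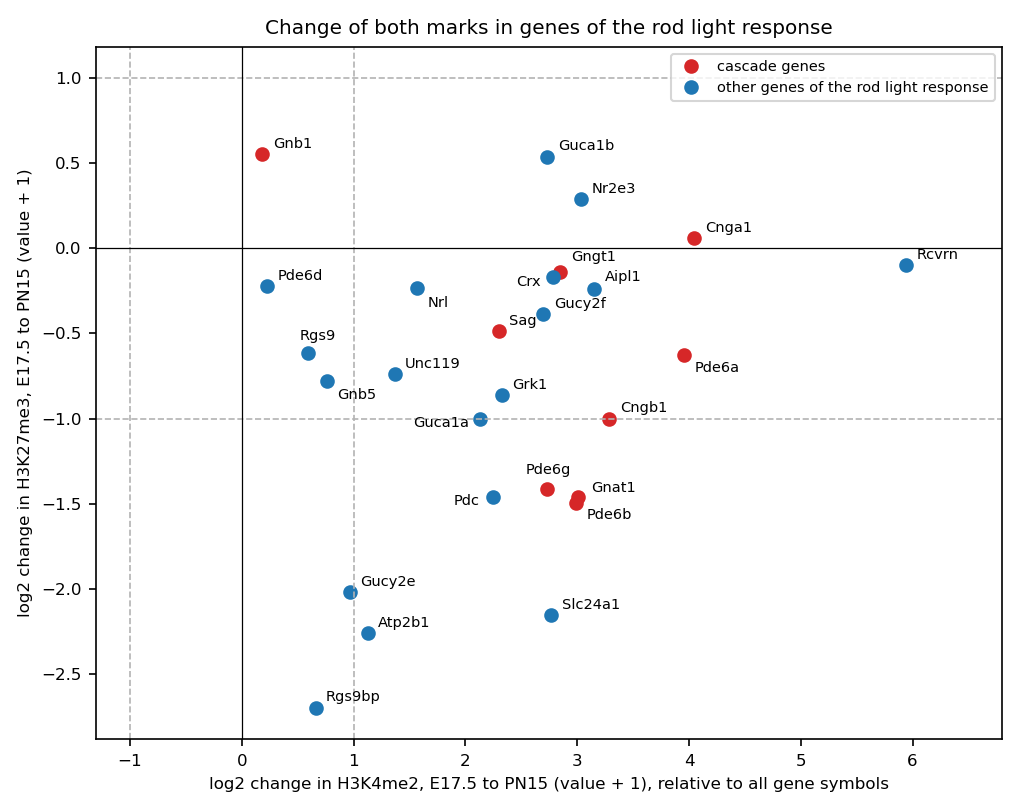
Relative log2 change (value plus 1) from E17.5 to PN15 in H3K4me2 (horizontal axis) and H3K27me3 (vertical axis) for the cascade genes (red, Cngb1 as BC016201) and 18 other genes of the rod light response (blue), with dashed lines at 2-fold. Most genes lie right of 1 in H3K4me2, Rcvrn farthest at 5.94 from a start of 1 that is under 3 reads, and the largest fall in H3K27me3 is that of Rgs9bp (-2.70), which did not pass 2-fold in H3K4me2.

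The genes whose profile was most like the cascade were found by distance over the 8 libraries (log2 of the value plus 1) from the median of the 7 genes other than Gnb1. Nearest were Cabp4, a calcium-binding protein of photoreceptor synapses, at 1.19, Grk1, a kinase of the photoreceptor shutoff, at 1.21, Gpr152 at 1.23 and Aipl1 at 1.31, followed by Tnfsf12, Tnfsf12-Tnfsf13, 4930451I11Rik, Cend1, 4933403G14Rik and Tnfsf13 (1.66 to 1.74). Cabp4 had H3K4me2 of 6, 15, 9 and 156, and Gpr152 had 7, 13, 8 and 155. Their H3K27me3 was also nearly the same, with 13, 16, 10 and 10 against 13, 16, 9 and 11. Whether the windows of Cabp4 and Gpr152 share reads was not examined, so they may not be separate examples. Tnfsf12 and the readthrough Tnfsf12-Tnfsf13 had the same 8 values. Of the cascade genes, Pde6a (1.35) and then Pde6b lay closest to their own median, with 4 outside genes nearer, and Sag (2.40) lay farthest of the 7, with 95 nearer. With percentiles in place of logs 5 of the 10 names were shared. Gnb1 was 4.39 from the median, and the genes most like it were Sssca1 (0.71), Nfe2l2 (0.72) and Ndrg4 (0.79).

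The labelled tissue was checked with marker genes of retinal cell types. All 6 rod markers used here rose in H3K4me2 from E17.5 to PN15, where 5.17% of all symbols rose and 12.8% fell. Their summed occupancy was 124, 122, 180 and 620 at the 4 stages. Cnga1 and Pde6g are among them, and the sum of the other 4 was 108, 102, 150 and 415. None was at 0 in any library. Over the same span the sum of 5 ganglion cell markers went from 262 to 134, with 3 of the 5 falling, and that of 4 endothelial markers from 141 to 78, with 2 falling and Pecam1 at 0 at PN15. The sum of 5 bipolar cell markers went from 136 to 226, but Prkca alone rose, from 63 to 154. Grm6 went from 30 to 33, Trpm1 from 10 to 15 and Vsx1 from 27 to 18, and Cabp5 had 6 at both stages. The sums of amacrine cells went from 267 to 221, of Mueller glia from 216 to 194 and of cones from 71 to 61. Among cells and tissues from outside the neural retina, the sums went from 17 to 23 for microglia, from 41 to 26 for blood, from 69 to 89 for pigment epithelium and from 29 to 19 for lens. The part of these cell types in the changes of the cascade genes was not tested.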

How the data were processed

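ChIP-Seq of pooled mouse retinas gave 1 library for each of 4 stages and each mark, H3K4me2 or H3K27me3. Per the methods, chromatin was cut with micrococcal nuclease, reads were mapped with Bowtie 0.12.4 (named in the submitters' processing notes too) to mm9, reads with several positions were dropped, and midpoints were placed for an assumed fragment of 190 bp. The legends of the study describe occupancy as reads within 2.5 kb of a TSS relative to all mapped reads, and the methods name NextGENe for reads per gene interval, so which step made the table is not given in the sources used here. The deposited values are scores, which the authors normalized to library reads and rounded. A count model was not used, since these are not counts of reads. Of 10 samples, 2 (H3K4me2 of rd1/rd1 at PN30 and an anti-GFP control) have no column and were not analysed here. Antibody catalogue numbers in the labels are swapped between the marks relative to the methods. Marks were taken from sample titles. In the header the H3K27me3 column of PN7 has an added b.

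The genes and lists were chosen with earlier results of these data known, and 1 gene of the lists is not reported here. Trailing numbers of symbols were dropped, and of several entries of a symbol the one with the largest sum was used. Changes used a pseudocount of 1 and were centred on the median of all symbols, with 2-fold as the limit. Text names all cascade genes and cone counterparts, the ends of each family at PN15, the 3 largest and 3 smallest changes of the light response list with those counted in groups of 5 or fewer, and the 10 and 3 nearest symbols. Other genes of that list (Gucy2e, Guca1a, Slc24a1, Crx, Nrl, Grk1, Atp2b1, Pdc) and of the families were named after their values were seen. Alternatives were a pseudocount of 5, no centring, scaling to the 75th percentile, entry means, a filter at a mean of 5, limits of 1.5-fold and 3-fold, PN1 as the start, the 99th percentile of olfactory receptors and percentile distances. In 2 simulated pairs of H3K4me2 libraries of 20044 genes, 100 and 98 of 100 genes raised 4-fold and 100 and 92 of 100 lowered 4-fold passed the limit. The changed genes were drawn from those with an E17.5 occupancy of 5 or more. Recovery from lower starts was not simulated, and calls among unchanged genes are not given. Occupancy worth 3 reads was 0.938 to 3 units across libraries. Tools were Python 3.11.15, scipy 1.17.1, pandas 2.3.3, numpy 2.4.6 and matplotlib 3.10.9.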

Additional observations from a re-analysis of the deposited data

How the results depend on the processing

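The rise of 7 of 8 genes in H3K4me2 from E17.5 to PN15 was found under every alternative run for it, and no change past the limit turned its direction. With PN1 as the start the median relative change was 2.01 (2.92 from E17.5). From PN1 to PN7, where 1 gene rose and 1 fell, 0 fell with a pseudocount of 5, 5 rose at a limit of 1.5-fold, and 0 rose and 0 fell at 3-fold. From PN7 to PN15 the median was 2.67 without centring (1.67 with it), where Gnb1 moved from -0.15 to 0.85, Pde6b to 2.13, Pde6g to 2.15 and Sag to 1.67, so that 7 genes rose in place of 6. In H3K27me3, 0 genes fell from E17.5 to PN15 at 3-fold (3 at 2-fold), and above the 99th percentile of the olfactory receptor genes there was 1 gene at E17.5, 0 at PN1 and 0 at PN7 (3, 3 and 2 above the 95th). Percentile distances shared 5 of the 10 nearest names. From PN1 to PN7 the median of the 8 genes was 0.60, and 0.10 without centring, 0.13 with 75th percentile scaling and 0.25 with the filter. Of the other values under alternatives, counts stayed within 1.5 times the main count, changes of single genes within their counting interval, and medians between the medians of the 8 genes' interval bounds. Values of a few units, as at PN7, limit what can be read from ratios, and no replicate was available. No paired analysis was possible because each mark and stage had 1 library and the labels carry no replicate numbers.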
